A study of Homo sapiens with 6 samples.

Results

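The genes described here are KISS1 and other metastasis suppressors, a class defined by function: their products limit the spread of tumor cells to distant organs with little effect on growth at the primary site. The 10 genes KISS1, KISS1R, NME1, BRMS1, CD82, PEBP1, MAP2K4, NDRG1, RECK and ARHGDIB were looked up by symbol among the 17039 genes of the expression matrix. Rows were found for 9 of them, and KISS1R was not analysed here. The genes were chosen with the expression of both cell lines already known, so their differences between the lines are a description. No p-value is given for them, and the count that met the criteria for differential expression is set only beside the share of all genes. The samples were 3 libraries of MDA-MB-231, a human triple-negative breast cancer line, and 3 libraries of 231-BR, its brain-seeking variant. 231-BR is a single selected line and was grown with 200 µg/mL G418, an agent not named for MDA-MB-231, so the drug and the line cannot be told apart. The 231-BR cells came as a gift from another laboratory, and MDA-MB-231 was bought from ATCC. The source of the cells and the line cannot be told apart either. The medium was otherwise DMEM with 10% serum and 1% penicillin-streptomycin for both. Poly(A) RNA was sequenced, and expression was given as FPKM, a fragment count scaled for transcript length and library size, which puts genes of different length on a common scale. Read counts were not used here and the depth of each library is unknown. The sources do not say that replicates were separate cultures, so errors and p-values cover only the spread between these libraries. In such bulk samples, fewer cells that express a gene and less RNA per cell cannot be told apart.

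Metastasis suppressors act at different steps. KISS1 is secreted and cut into kisspeptins, which signal through the receptor KISS1R. CD82 is a tetraspanin that organizes integrins and other receptors in the membrane. PEBP1 (RKIP) restrains the ERK cascade, and MAP2K4 activates the JNK and p38 kinases. BRMS1 acts in a SIN3-HDAC corepressor complex, NME1 is a nucleoside diphosphate kinase, RECK is a membrane-anchored protease inhibitor, ARHGDIB holds small GTPases in their inactive form, and NDRG1 is a stress-responsive cytoplasmic protein.

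The promoters of KISS1, CD82 and PEBP1 are shown because these genes had the largest differences of the 9, given after them. Each is the 250 bases before the RefSeq transcription start on the gene's own strand, from the RefSeq table of GRCh38.p14. Capitals mark matches on either strand to the GC box GGGCGG bound by SP1-type factors, the AP-2 motif GCCNNNGGC, the Snail-type E-box CAGGTG, the AP-1 motif TGANTCA and the TATA box TATAAA. SP1 and AP-2 factors are known regulators of KISS1, and Snail is a known repressor of PEBP1. The windows are chr1:204196492-204196741 (minus strand) for KISS1, chr11:44565413-44565662 (plus strand) for CD82 and chr12:118135874-118136123 (plus strand) for PEBP1.
KISS1: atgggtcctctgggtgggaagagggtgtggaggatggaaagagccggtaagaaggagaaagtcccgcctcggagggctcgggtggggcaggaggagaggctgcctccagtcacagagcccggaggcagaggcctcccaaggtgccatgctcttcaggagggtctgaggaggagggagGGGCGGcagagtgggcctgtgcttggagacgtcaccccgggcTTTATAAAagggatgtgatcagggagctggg
CD82: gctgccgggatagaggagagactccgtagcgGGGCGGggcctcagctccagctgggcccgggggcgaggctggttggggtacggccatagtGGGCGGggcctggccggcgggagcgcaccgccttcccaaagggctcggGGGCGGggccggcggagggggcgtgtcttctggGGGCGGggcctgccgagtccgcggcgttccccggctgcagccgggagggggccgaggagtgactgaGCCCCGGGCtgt
PEBP1: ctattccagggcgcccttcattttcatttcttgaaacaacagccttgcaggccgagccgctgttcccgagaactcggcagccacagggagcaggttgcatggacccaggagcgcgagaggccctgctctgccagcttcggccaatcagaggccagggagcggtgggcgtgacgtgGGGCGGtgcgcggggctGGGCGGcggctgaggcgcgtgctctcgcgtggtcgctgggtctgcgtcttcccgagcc

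The windows differed in make-up. KISS1 held 1 GC box and 8 CpG dinucleotides, and its TATA box, 29 to 24 bases before the start, overlapped a match on the other strand. CD82 held 4 GC boxes, 1 AP-2 match and 26 CpG, with 77.2% G and C. PEBP1 held 2 GC boxes and 23 CpG. The E-box and the AP-1 motif were in none of these 3 windows. In the GENCODE annotation CD82 and PEBP1 start before their windows, at 44564427 and 118135858, and sequence upstream of those starts was not searched. Over 35116 promoters of the same length, 42.6% held a GC box, 19.8% an AP-2 match, 17.5% the E-box, 6.57% the AP-1 motif and 10.7% the TATA box. The median CpG number over these promoters was 11, above that of KISS1 and below those of CD82 and PEBP1. Promoters were found for 8 of the 10 genes, with 3 starts for ARHGDIB, and among these 10 windows the TATA box was in that of KISS1 alone.

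The libraries of a line resembled each other closely. Over 11124 genes, the lowest correlation of log2 values within a line was 0.997 and the highest between the lines was 0.902, with genes as points that are not replicates. VIM, CD44, KRT8 and KRT18, which MDA-MB-231 cells are known to express, ranged from 174 to 2566 FPKM. The hormone receptor genes ESR1 and PGR reached at most 1.08 and 0.07 FPKM. Markers of other cells were low, at most 0.04 FPKM for the leukocyte gene PTPRC, 0.07 for the glial gene GFAP, 0.16 for the neuronal gene RBFOX3 and 0.48 for the endothelial gene PECAM1. The cell line label of the samples runs from 231 to 233 within each line, so the libraries were grouped by their titles. Below, values with ± are the mean and SD of the 3 libraries of a line.

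KISS1 showed the largest difference of the 9 genes and was lower in 231-BR cells. It had 42.3, 44.7 and 42.13 FPKM in the MDA-MB-231 libraries and 0.31, 0.44 and 0.31 FPKM in the 231-BR libraries. Every 231-BR library lay far below every MDA-MB-231 library, and none was at 0. The means were 43.0 ± 1.44 and 0.353 ± 0.075 FPKM, a ratio of 122. To place the genes among all others, log2(FPKM + 0.1) was fitted with limma for 13465 genes whose mean FPKM reached 0.1, a scale that understates the differences of low genes. The log2 fold change of KISS1, 231-BR relative to MDA-MB-231, was -6.58 (standard error 0.10), the 2nd lowest among these genes. It was -5.03 with a pseudocount of 1 and -6.91 with 0.01. In MDA-MB-231 cells 85.8% of the genes fitted had a lower level than KISS1, against 9.32% in 231-BR cells. KISS1 (gene ID 3814) lies on the minus strand of chromosome 1, from 204190341 to 204196486 in GRCh38.

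CD82 was also lower in the variant. The MDA-MB-231 libraries had 33.12, 32.69 and 33.29 FPKM, and the 231-BR libraries had 3.41, 2.99 and 3.44 FPKM. The lines did not overlap and each set was narrow. The means were 33.0 ± 0.309 and 3.28 ± 0.252 FPKM, a ratio of 10.1, and the log2 fold change was -3.30 (standard error 0.055), the 55th lowest. In 231-BR cells 30.1% of the genes fitted had a lower level than CD82, against 81.3% in MDA-MB-231 cells. CD82 lies on the plus strand of chromosome 11, from 44564427 to 44620363.

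PEBP1 differed in the opposite direction. It had 112.27, 113.71 and 116.23 FPKM in the MDA-MB-231 libraries and 222.75, 233.8 and 229.99 FPKM in the 231-BR libraries. All 231-BR libraries were above all MDA-MB-231 libraries. The means of 114.1 ± 2.004 and 228.8 ± 5.61 FPKM gave a ratio of 2.01 and a log2 fold change of 1.00 (standard error 0.025). This sat on the fold threshold of 1 used below: PEBP1 was at 0.92 after median-of-ratios scaling and between 0.988 and 1.02 with each library left out. PEBP1 lies on the plus strand of chromosome 12, from 118135858 to 118145584.

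**Figure D1:**
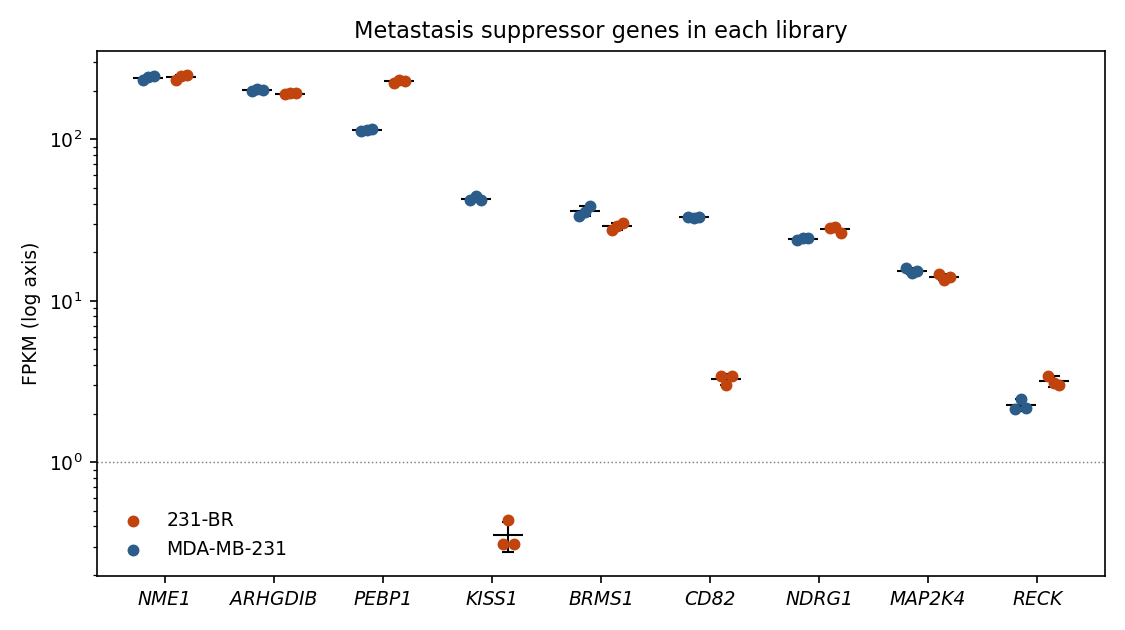
FPKM (log axis) of 9 metastasis suppressor genes in each library of both lines, with the mean and SD of 3 libraries per line and a dotted line at 1 FPKM. KISS1 is at 43.0 and 0.353 FPKM and CD82 at 33.0 and 3.28 FPKM, MDA-MB-231 first, PEBP1 is at 114.1 and 228.8 FPKM, and the points of the other genes lie close together.

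The other 6 genes differed by less than 0.5 on the log2 scale, as did 61.4% of all genes fitted. RECK (chromosome 9, 36036433 to 36124451) had 2.15, 2.48 and 2.17 FPKM in MDA-MB-231 cells and 3.43, 3.08 and 3 FPKM in 231-BR cells, with a log2 fold change of 0.47 that was 0.17 after quantile normalization. NDRG1 (chromosome 8, 133237171 to 133302022) had 23.85, 24.47 and 24.56 FPKM against 28.45, 28.79 and 26.51 FPKM in 231-BR cells, with a log2 fold change of 0.20. For both, every 231-BR library was above every MDA-MB-231 library.

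BRMS1, MAP2K4 and ARHGDIB were a little lower in 231-BR cells, also without overlap. BRMS1 (chromosome 11, 66337333 to 66345125) had 33.65, 35.76 and 38.84 FPKM in MDA-MB-231 cells and 27.49, 29.14 and 30.28 FPKM in 231-BR cells, with a log2 fold change of -0.31. MAP2K4 (chromosome 17, 12020824 to 12143830) had 16, 14.84 and 15.22 FPKM against 14.6, 13.49 and 13.97 FPKM, with a log2 fold change of -0.13. The lowest MDA-MB-231 library of MAP2K4 lay just above the highest 231-BR library. ARHGDIB (chromosome 12, 14942017 to 14961728) had 200.37, 206.33 and 201.91 FPKM against 190.83, 193.9 and 193.3 FPKM, with a log2 fold change of -0.074 that was 0.014 after quantile normalization.

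NME1 was the only one of the 9 genes whose lines overlapped. It had 233.23, 243.17 and 246.6 FPKM in MDA-MB-231 cells and 232.65, 245.68 and 250.72 FPKM in 231-BR cells, with a log2 fold change of 0.012 that was -0.071 after median-of-ratios scaling. NME1 (chromosome 17, 51153536 to 51162428) has a close paralog beside it, NME2, and a readthrough gene joins them, so the authors' counting could have split reads among 3 rows and the value of NME1 is uncertain. The sum of NME1, NME2 and NME1-NME2 was 868.8 ± 27.0 FPKM in MDA-MB-231 and 1018 ± 27.8 FPKM in 231-BR.

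Genes were called differentially expressed (DEGs) when 3 conditions held, namely a limma adjusted p under 0.05, more than 1 on the absolute log2 scale, and 1 FPKM or more on average in each line. PEBP1 was called higher, beside 4.68% of all genes fitted, and CD82 lower, beside 1.77%, so that 2 of the 9 were called beside 6.45% in all. KISS1 failed through its level in 231-BR cells, and with the FPKM condition asked of either line 3 of the 9 were called, beside 11% of all genes. A log2 fold change below -1 was seen for 2 of the 9 and 4.36% of all genes, and one above 1 for 1 of the 9 and 10.9% of all genes. No overlap between the lines was seen for 8 of the 9, beside 78.4% of all genes, with 3 higher in 231-BR (44.9% of all genes) and 5 lower (33.5%). Since this contrast was known when the genes were chosen, nothing is read from these counts. The median log2 fold change was -0.074 over the 9 genes and 0.077 over all genes fitted.

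**Figure D2:**
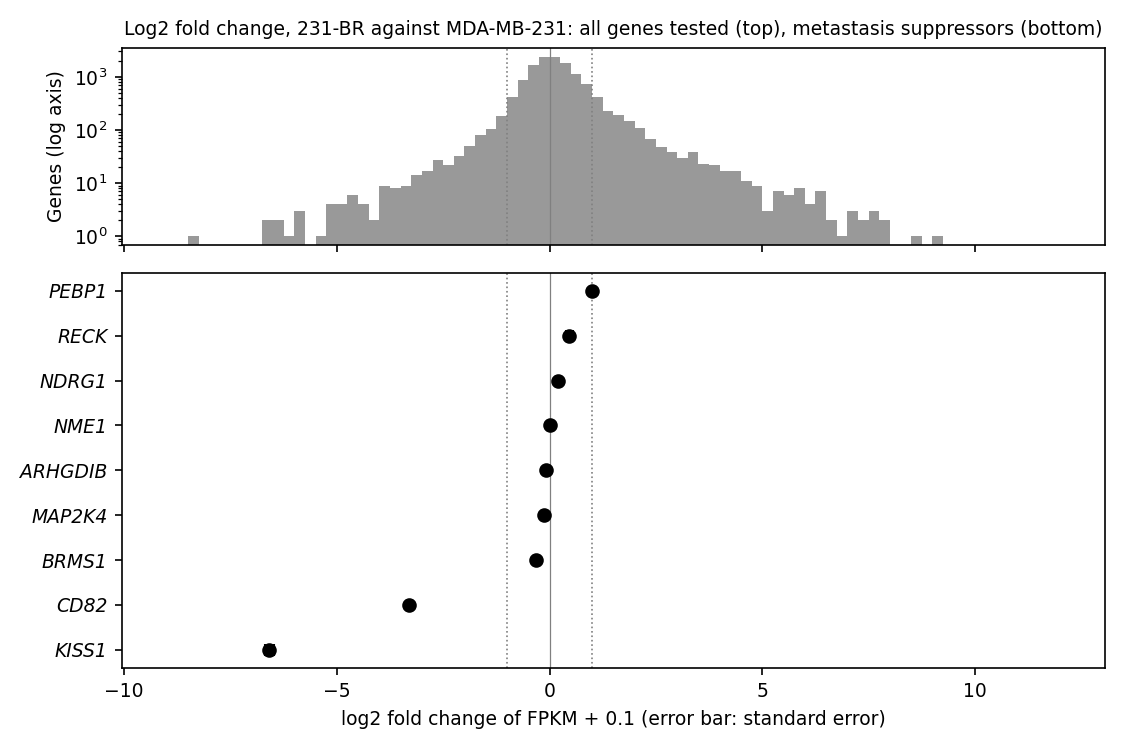
Log2 fold change of FPKM + 0.1, 231-BR relative to MDA-MB-231, as a histogram of the 13465 genes fitted and for each metastasis suppressor with its standard error. KISS1 (-6.58) lies at the lower end of all genes, followed by CD82 (-3.30), PEBP1 (1.00) sits at 1, and the other 6 genes lie between -0.31 and 0.47.

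The order of the levels differed between the lines. In MDA-MB-231 cells it ran from NME1 (241 FPKM) through ARHGDIB (202.9), PEBP1 (114.1), KISS1 (43.0), BRMS1 (36.1), CD82 (33.0), NDRG1 (24.3) and MAP2K4 (15.35) to RECK (2.27 FPKM), and no neighbours in this order overlapped. In 231-BR cells it ran from NME1 (243 FPKM) through PEBP1 (228.8), ARHGDIB (192.7), BRMS1 (28.97), NDRG1 (27.9), MAP2K4 (14.02), CD82 (3.28) and RECK (3.17) to KISS1 (0.353 FPKM). There the libraries of NME1 and PEBP1 overlapped, as did those of BRMS1 and NDRG1 and those of CD82 and RECK. KISS1 was thus in the 4th place in one line and in the last in the other.

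The 5 genes most like KISS1, by Euclidean distance of log2(FPKM + 0.1) over the 6 libraries, were COL7A1 (distance 1.92), KRT7 (2.15), IL1A (2.77), TGFBI (2.98) and TGM2 (2.99). COL7A1, the collagen of anchoring fibrils, had 20.8 ± 0.931 FPKM in MDA-MB-231 cells and 0.463 ± 0.040 in 231-BR cells. KRT7, a keratin of simple epithelia, had 77.0 ± 7.18 and 0.713 ± 0.11 FPKM. TGM2, a transglutaminase that crosslinks proteins, had 140.4 ± 3.31 and 0.353 ± 0.031 FPKM, and its log2 fold change of -8.28 was the lowest of all genes fitted. None of the 5 lies on chromosome 1 with KISS1.

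KISS1 lay below all 40 of its nearest genes, 20 on either side in RefSeq gene order among genes averaging 1 FPKM or more. The genes beside it were ETNK2, with a log2 fold change of 0.28, and PLEKHA6, with 1.77. The median of the 40 was 0.37, 35 of them were above 0 and the lowest was at -1.60. CD82 was also below all 40 of its neighbours, whose median was 0.32 and whose lowest value was -1.35. The neighbours of PEBP1 had a median of 0.36, and 2 of the 40 were above its own value. Over all 11090 genes placed, the 5th and 95th percentiles of such neighbour medians were -0.34 and 0.58.

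Around NDRG1 most genes were higher in 231-BR cells. The median log2 fold change of its 40 neighbours was 0.89, 39 of the 40 were above 0 and 16 were above 1. NDRG1 itself, with 0.20, was below 38 of them. The neighbour medians of NME1 and MAP2K4 were 0.31 and 0.22, and those of BRMS1, RECK and ARHGDIB were -0.21, -0.17 and -0.061. RECK was above 36 of its 40 neighbours.

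**Figure D3:**
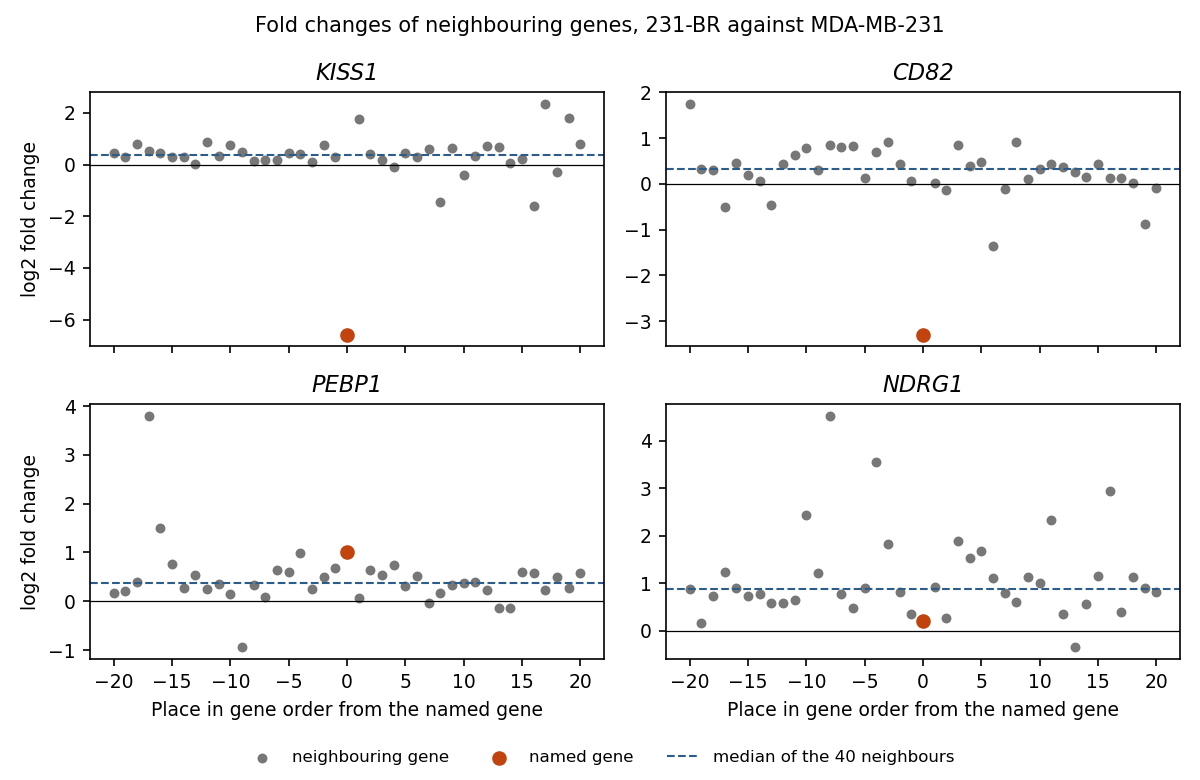
Log2 fold change, 231-BR relative to MDA-MB-231, of KISS1, CD82, PEBP1 and NDRG1 and of the 20 nearest genes on either side, against the place in gene order, with the median of the 40 neighbours as a line. KISS1 and CD82, the 2nd and 55th lowest of all genes fitted, lie below all their neighbours, and NDRG1 (0.20) lies under a neighbour median of 0.89.

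Genes that act with the metastasis suppressors, and 20 other metastasis suppressors, were grouped by role in 11 lists. Both kinds are called partner genes here. Of the 123 genes in the lists, 121 were in the matrix and 110 were tested with limma, with Benjamini-Hochberg adjustment over all 13465 genes. The lists too were chosen with earlier results of these data known, so their adjusted p-values are a description and no independent test. In 231-BR cells 50 rose, beside 44.4% of all genes, and 45 fell, beside 32.9%. The balance was 46 and 48 after median-of-ratios scaling and 48 and 49 after quantile normalization. Together these are 86.4% of the list genes tested, and 77.3% of all genes passed the same threshold. The counts of single lists below are to be read beside the same shares of all genes. The median log2 fold change was 0.050 over the lists and 0.077 over all genes.

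Of the 5 genes for the expression and processing of KISS1, 2 rose, 2 fell and TFAP2A did not pass. FURIN, a convertase that cuts prohormones, fell from 22.6 ± 0.165 FPKM in MDA-MB-231 to 7.21 ± 0.204 FPKM in 231-BR (log2 fold change -1.63, adjusted p = 1.6e-10). TXNIP, a thioredoxin-binding protein reported upstream of KISS1, rose from 31.2 ± 0.824 to 58.0 ± 0.779 FPKM (0.89). MED23, a Mediator subunit, had a log2 fold change of 0.20 (adjusted p = 0.00578), which passed neither after median-of-ratios scaling nor after quantile normalization. SP1 fell by 0.19 on the log2 scale. TFAP2A, the gene of AP-2 alpha, had 3.04 ± 0.208 FPKM in MDA-MB-231 and 2.85 ± 0.139 FPKM in 231-BR cells.

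The 12 genes that carry the signal of KISS1R, a receptor coupled to Gq and G11, all passed the test, 6 in each direction. Of all genes 77.3% passed. PLCB2, among the 12, was low, with 0.097 FPKM in MDA-MB-231 and 0.463 FPKM in 231-BR. The phospholipase C gene PLCB4 fell from 2.45 ± 0.273 to 0.13 ± 0.035 FPKM (log2 fold change -3.48, adjusted p = 1.08e-08). PLCB1, of the same family, rose from 1.12 ± 0.136 to 2.90 ± 0.070 FPKM (1.31, and 0.88 with a pseudocount of 1). Among the inositol trisphosphate receptors ITPR1 rose by 1.25 on the log2 scale (0.87 with a pseudocount of 1), while ITPR2 and ITPR3 fell by 0.67 and 0.79. For the G protein subunits, GNAQ rose by 0.42 and GNA11 fell by 0.33.

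Of 9 tested tetraspanins and partners of CD82, 2 rose and 4 fell, and CD37 and CD53 were too low to test. Among other settings, 6 fell after median-of-ratios scaling and 5 after quantile normalization, and 4 rose with no filter. TSPAN4 fell from 33.8 ± 0.465 to 17.7 ± 1.14 FPKM (log2 fold change -0.93, adjusted p = 2.88e-08). The abundant tetraspanins CD63, CD81 and CD151 fell by 0.73, 0.41 and 0.70 on the log2 scale, and CD9, at 95 ± 0.942 FPKM in MDA-MB-231 and 91.4 ± 1.92 FPKM in 231-BR, did not pass. TSPAN8 rose from 0.013 ± 0.023 to 3.50 ± 0.498 FPKM and was listed at 0 in 2 of the MDA-MB-231 libraries. PTGFRN, which binds CD9 and CD81, rose from 0.167 ± 0.021 to 2.78 ± 0.095 FPKM (log2 fold change 3.44, adjusted p = 1.85e-09).

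Of the 10 genes around PEBP1, 4 rose and 4 fell. SNAI1, the gene of Snail, fell from 5.50 ± 0.445 to 1.62 ± 0.202 FPKM (log2 fold change -1.71, adjusted p = 1.06e-07). BACH1, a transcription factor linked to PEBP1, rose by 0.90 and MAPK3 (ERK1) by 0.57 on the log2 scale. The kinase genes ARAF and BRAF fell by 0.52 and 0.43.

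Of 15 tested genes of the JNK and p38 cascades around MAP2K4, 7 rose and 7 fell. MAPK13, the delta form of p38, fell from 8.63 ± 0.075 to 0.89 ± 0.078 FPKM (log2 fold change -3.14, adjusted p = 2.41e-10). MAPK11, the beta form, rose by 1.23 and the JNK scaffold gene MAPK8IP1 by 0.86. MAPK8 (JNK1) rose from 21.1 ± 0.167 to 32.9 ± 0.616 FPKM. MAP2K7, the other direct activator of JNK, rose from 22.1 ± 0.787 to 32.2 ± 1.53 FPKM. Its log2 fold change of 0.54 was below the median of its 40 neighbours in gene order, which was 0.85. The mean of MAP2K4 in 231-BR was 0.913 of that in MDA-MB-231 cells.

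Of the 9 genes of the NME family and partners of NME1, 8 rose, beside 44.4% of all genes, and NME6 fell (adjusted p = 0.0421). NME5, among the 8, was low, with 0.013 FPKM in MDA-MB-231 and 0.273 FPKM in 231-BR. The number that rose was 7 with the filter at a mean FPKM of 1. The libraries of NME6 overlapped between the lines, and no gene of the list fell with no filter, without the trend in the limma fit, without 231-BR replicate 1 or 3, or without MDA-MB-231 replicate 1 or 2. LPAR1, a lysophosphatidic acid receptor gene that NME1 is known to repress, rose from 7.17 ± 0.57 to 48.95 ± 1.23 FPKM (log2 fold change 2.76, adjusted p = 6.1e-11). The mitochondrial NME4 rose from 24.4 ± 0.963 to 62.05 ± 2.29 FPKM (1.34). NME2 rose by 0.30, and PRUNE1, which binds NME1, by 0.69 on the log2 scale.

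Of the 15 genes of the SIN3-HDAC complex, in which BRMS1 acts, 8 rose and 5 fell. SIN3B, a scaffold of the complex, rose from 8.49 ± 0.07 to 25.8 ± 1.04 FPKM (log2 fold change 1.59, adjusted p = 2.59e-10). Most genes around SIN3B were higher too: its 40 neighbours in gene order had a median log2 fold change of 1.01. The 95th percentile of such medians was 0.58. BRMS1L, the paralog of BRMS1, rose from 6.68 ± 0.484 to 12.7 ± 0.733 FPKM (0.92). SUDS3, another subunit, rose by 0.64 and the histone-binding RBBP7 fell by 0.41. The deacetylase genes HDAC1 and HDAC2 had log2 fold changes of 0.051 and 0.050 and did not pass.

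Of 5 tested genes of the NDRG family and regulators of NDRG1, 1 rose and 3 fell. NDRG3 fell from 28.1 ± 1.11 to 19.2 ± 0.248 FPKM (log2 fold change -0.55, adjusted p = 2.56e-07), and NDRG2 fell from 0.627 ± 0.085 to 0.06 ± 0.017 FPKM. NDRG4, at 1.42 ± 0.166 FPKM in MDA-MB-231 and 1.54 ± 0.01 FPKM in 231-BR, did not pass (log2 fold change 0.12). After quantile normalization the NDRG4 log2 fold change was -0.27 and passed as lower (limma adjusted p = 0.0265). SGK1, a kinase that phosphorylates NDRG1, rose from 6.94 ± 0.106 to 24.6 ± 0.649 FPKM (1.81). HIF1A, whose product induces NDRG1, fell from 92.9 ± 2.48 to 48.2 ± 0.848 FPKM (-0.94).

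Of 5 tested genes of proteins that RECK acts on or with, 1 rose and 1 fell, and MMP2 and WNT7A were too low to test. The number that fell was 2 with no filter, with median-of-ratios scaling, without the trend and without MDA-MB-231 replicate 1, and 3 after quantile normalization. WNT7B, a ligand for which RECK is a coreceptor, rose from 1.91 ± 0.053 to 9.13 ± 0.18 FPKM (log2 fold change 2.2, adjusted p = 3.04e-10). ADGRA2, of the same list, was low, with 0.167 FPKM in MDA-MB-231 and 0.113 FPKM in 231-BR, and did not pass. The protease gene ADAM10 fell by 0.19 on the log2 scale (adjusted p = 0.000222). MMP14, a membrane-bound metalloprotease gene, had 102.2 ± 3.29 FPKM in MDA-MB-231 and 97.9 ± 0.599 FPKM in 231-BR cells and did not pass. MMP9 had at most 0.21 FPKM in any library.

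Of 9 tested genes of RhoGDIs and small GTPases, 2 rose, beside 44.4% of all genes, and 7 fell, beside 32.9%. Those that fell were 5 without the trend, after quantile normalization, without 231-BR replicate 1 and without MDA-MB-231 replicate 2, and 1 rose after median-of-ratios scaling and without 231-BR replicate 2. RAC2 fell from 146.2 ± 0.386 to 60.6 ± 1.55 FPKM (log2 fold change -1.27, adjusted p = 6.19e-11). RHOC, a GTPase linked to invasion, fell by 0.67 and CDC42 rose by 0.47 on the log2 scale. ARHGDIA, the widely expressed RhoGDI, had 349.4 ± 9.70 FPKM in MDA-MB-231 and 327.9 ± 9.40 FPKM in 231-BR cells (log2 fold change -0.092, adjusted p = 0.0138), and did not pass without the trend or without 231-BR replicate 1 or MDA-MB-231 replicate 2. After quantile normalization the ARHGDIA log2 fold change was 0.075 and passed as higher (limma adjusted p = 0.0152). ARHGDIG, a further paralog of ARHGDIB, was not analysed here.

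Of 16 tested genes among 20 other metastasis suppressors, 9 rose and 5 fell, and the median log2 fold change was 0.38. CADM1 and MTSS1, among the 9, averaged under 1 FPKM in both lines. With the filter at a mean FPKM of 1, 7 rose and 5 fell. TIMP3, an inhibitor of metalloproteases, rose from 0.38 ± 0.096 to 112.9 ± 1.36 FPKM (log2 fold change 7.90, adjusted p = 1.8e-11). CAVIN2, a coat protein of caveolae, rose from 1.57 ± 0.104 to 10.49 ± 0.335 FPKM (2.67). AKAP12, a scaffold of protein kinases A and C, fell from 15.7 ± 0.556 to 2.69 ± 0.083 FPKM (-2.51). CDH1, the gene of E-cadherin, averaged 0.013 FPKM in MDA-MB-231 and 0.0067 FPKM in 231-BR cells and was too low to test.

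**Figure D4:**
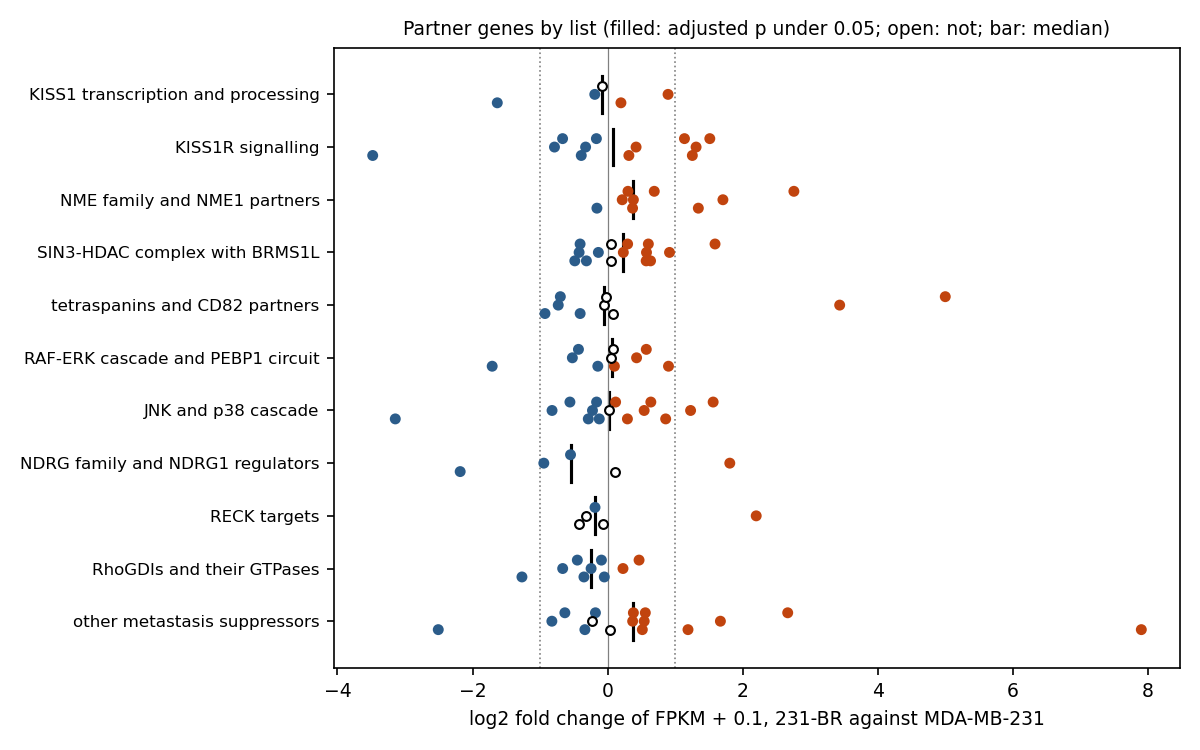
Log2 fold change of FPKM + 0.1, 231-BR relative to MDA-MB-231, of each tested partner gene by list, filled at an adjusted p under 0.05 and open otherwise, with the list median as a bar. All 11 lists hold genes on both sides of 0, with PLCB4 (-3.48) and MAPK13 (-3.14) farthest to the left and TIMP3 (7.90) farthest to the right.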

How the data were processed

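The authors filtered the reads with SOAPnuke, mapped them to the genome with HISAT2 (2.0.4) and to a gene set with Bowtie2 (2.2.5), and deposited FPKM per gene; the submitters' notes name GRCh38.p12. The program behind FPKM is not given in the sources used here.

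The genes and lists were chosen with earlier results of these data known. In R 4.3.3, limma 3.58.1 (lmFit, then eBayes with trend) was run on log2(FPKM + 0.1) of the 13465 genes whose mean reached 0.1 FPKM, using Benjamini-Hochberg adjustment. For 1 gene, an exact permutation of 3 against 3 libraries reaches no p under 0.1. Named partners were, per list, up to 3 genes of largest absolute log2 fold change (adjusted p under 0.05, 1 FPKM on average in a line) and paralogs of the genes. Others were named after their values were seen. Gene positions are from GENCODE on GRCh38, and gene order from RefSeq GRCh38.p14. The fit and neighbour medians were tested on simulated data. Alternatives were other pseudocounts, filters, scalings and thresholds, no trend, a replicate block and leaving out libraries.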

Additional observations from a re-analysis of the deposited data

How the results depend on the processing

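The number of the 9 genes called as DEGs was 2. It was 1 with a pseudocount of 1, with median-of-ratios scaling and with an absolute log2 fold change over 1.5, and PEBP1 was the gene lost. With each library left out it ranged from 1 to 2, being 1 without 231-BR replicate 2, without 231-BR replicate 3 and without MDA-MB-231 replicate 1. The log2 fold change of KISS1 was -5.03 and -6.91 with pseudocounts of 1 and 0.01 and -6.79 after quantile normalization, and ranged from -6.72 to -6.52 with libraries left out. The median over the 9 genes was -0.16 after median-of-ratios scaling and 0.0138 after quantile normalization. In both, as in the fit as reported, it was the value of ARHGDIB. Quantile normalization moved the median of all genes from 0.077 to -0.060 and turned the sign of ARHGDIB (0.0138), ARHGDIA (0.0753) and NDRG4 (-0.27). The cause was not tested. The DEGs were 630 higher and 238 lower as reported, 523 and 302 after median-of-ratios scaling, and 439 and 384 after quantile normalization. Between 90 and 97 partner genes had an adjusted p under 0.05 with libraries left out, against 95 with all. Deviations of same-numbered libraries from their line means correlated at 0.087, -0.04 and -0.106, so the numbers were not taken as pairs. Partner genes that passed were 46 higher and 48 lower after median-of-ratios scaling and 48 and 49 after quantile normalization, against 50 and 45. With the replicate block 95 partner genes passed, 51 higher and 44 lower, 2 of the 9 genes were called and KISS1 stayed at -6.58. The depth is unknown, which leaves the counting error of low values such as those of KISS1 in 231-BR cells unknown too.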
